A study of Mus musculus with 12 samples.

Results

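The 10 heparan sulfate proteoglycan core genes examined here were the 4 syndecans (Sdc1, Sdc2, Sdc3 and Sdc4), the 4 glypicans Gpc1, Gpc3, Gpc4 and Gpc6, perlecan (Hspg2) and agrin (Agrn). They were chosen by name, as the entries whose Ensembl identifiers carry these symbols in the GENCODE annotation of the mouse genome (GRCm38), and they are 10 of the 55487 genes listed in the counts. The RNA came from C2C12 myotubes, multinucleated cells formed by a mouse myoblast line when serum is lowered. Differentiation lasted 5 days with 2% horse serum, after which the myotubes received 4% STEM (6 libraries, numbered 7 to 12) or 4% horse serum (6 libraries, numbered 1 to 6) for 24 h. STEM is a cell-free product made of what partially differentiated human pluripotent stem cells secrete. It took the place of the serum, so the addition of STEM and the removal of horse serum cannot be told apart. All the libraries share this 1 mouse line and its differentiation step, and nothing in the labels says that they came from separate cultures, so p-values measure only the spread between these libraries.

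Heparan sulfate proteoglycans are core proteins that carry long, sulfated sugar chains. Syndecans span the membrane and glypicans are tethered to it by a lipid anchor, whereas perlecan and agrin are secreted into the basement membrane that wraps each muscle fibre. The chains bind growth factors such as FGFs and HGF and present them to their receptors, and agrin made by motor neurons clusters acetylcholine receptors at the neuromuscular junction. In muscle, Sdc3 and Sdc4 are known from satellite cells, the resident stem cells.

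The syndecans are grouped as a family by a short cytoplasmic tail that ends in a PDZ-binding motif, to which adaptors such as syntenin (Sdcbp) bind. The coding sequence of the last 34 codons and the stop codon is shown for each of them because all 3 called core genes, Sdc1, Sdc2 and Sdc4, are syndecans. Each run lies in the last exon (GRCm38, GENCODE M21 transcript), at chr12:8791703-8791807 on the plus strand for Sdc1, chr15:33032436-33032540 on the plus strand for Sdc2, chr4:130822705-130822809 on the plus strand for Sdc3 and chr2:164426086-164426190 on the minus strand for Sdc4. Capitals mark the last 4 codons before the stop.
Sdc1: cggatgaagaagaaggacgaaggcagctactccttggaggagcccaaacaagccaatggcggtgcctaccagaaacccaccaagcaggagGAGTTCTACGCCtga
Sdc2: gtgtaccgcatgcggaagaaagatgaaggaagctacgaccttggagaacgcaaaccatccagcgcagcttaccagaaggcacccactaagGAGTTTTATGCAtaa
Sdc3: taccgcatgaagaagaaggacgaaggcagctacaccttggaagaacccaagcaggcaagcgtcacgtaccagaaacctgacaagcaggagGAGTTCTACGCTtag
Sdc4: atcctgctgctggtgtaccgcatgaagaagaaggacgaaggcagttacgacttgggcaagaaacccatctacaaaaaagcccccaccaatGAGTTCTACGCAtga
Matched with gaps allowed, the 105 bases were most alike between Sdc1 and Sdc3 (81.9% identical) and least alike between Sdc3 and Sdc4 (67.6%). Each run has the same length whatever the length of the tail, so it can include codons from before the tail. These values are therefore not identities of the tails alone. Of the 12 bases in capitals, 9 to 11 were identical in every pair. Sdc1 and Sdc4, whose tail ends match at 11 of 12 bases, moved in opposite directions with STEM, as described next.

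Total counts ran from 13285472 to 18254882 per library in horse serum and from 14909485 to 24536264 with STEM. The RNA was of muscle identity: every one of the 11 myotube markers was present, while the leukocyte markers Ptprc and Adgre1, the endothelial markers Pecam1 and Kdr and the adipocyte markers Adipoq, Plin1 and Cidec had 3 counts or fewer in every library. Summed levels of those 3 lists reached at most 5.28, 1.0 and 0.27 CPM (counts scaled to a common library size). Of the other members of these lists, Cd68 had 39 to 87 counts per library, Cd163 3 to 16 and Tek 4 to 11, and Itgam, Cdh5 and Fabp4 at most 9, 6 and 4. The neural and pluripotent list summed to 1558 to 1728 CPM in horse serum and 1321 to 1748 CPM with STEM, nearly all of it nestin (Nes), with Pou5f1 and Sox2 at 3 counts or fewer. Horse serum library 6 stood apart. Its myotube markers summed to 7789 CPM, against 14410 to 15600 CPM in the other horse serum libraries and 11850 to 14920 CPM with STEM. Its undifferentiated myoblast and reserve cell markers summed to 749.9 CPM, against 558.5 to 617.1 CPM in the other horse serum libraries and 688.0 to 787.5 CPM with STEM. Of the sum in library 6, 459.2 CPM was Cdh15, and the genes of this list did not move together. In library 6 Spry1 was at its highest of all libraries, whereas Pax7 was at its lowest and Hey1 was near its lowest. The sum therefore does not show that library 6 held more reserve cells. Markers of cycling cells summed to 634.4 to 1027 CPM in horse serum, highest in library 6, and to 473.9 to 568.8 CPM with STEM. Of these 6 genes 5 were called lower with STEM and 0 higher (edgeR adjusted p of 0.05 or less). Over all tested genes 17.4% were called lower and 18.9% higher. Of the 11 myotube markers 1 was called higher and 2 lower, and of the 7 myoblast and reserve cell markers 2 higher and 3 lower. In bulk RNA, fewer cells of a type and less RNA per cell cannot be told apart. The part of these marker differences in the results below was not tested, and values without library 6 are given beside each tested member.

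Of the 10 core genes, 8 had enough counts to be tested with edgeR's quasi-likelihood test (adjusted p by Benjamini-Hochberg over 14175 genes, called at 0.05 or less). Sdc1 and Sdc2 were higher with STEM, Sdc4 was lower, and 5 tested genes were not called. These 3 calls were 37.5% of the tested members, and over all genes 36.4% were called, so the count itself is near the background. In 1 direction, 18.9% of all genes were called higher and 17.4% lower. Over the 8 tested members the median log2 fold change was 0.17, and over all genes it was 0.01. Without horse serum library 6 the count was again 3 of 8, while 50.8% of all genes were called. Leaving out STEM library 10 instead brought it to 5, with Gpc6 and Hspg2 added, where 4746 of 14307 genes were called.

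**Figure D1:**
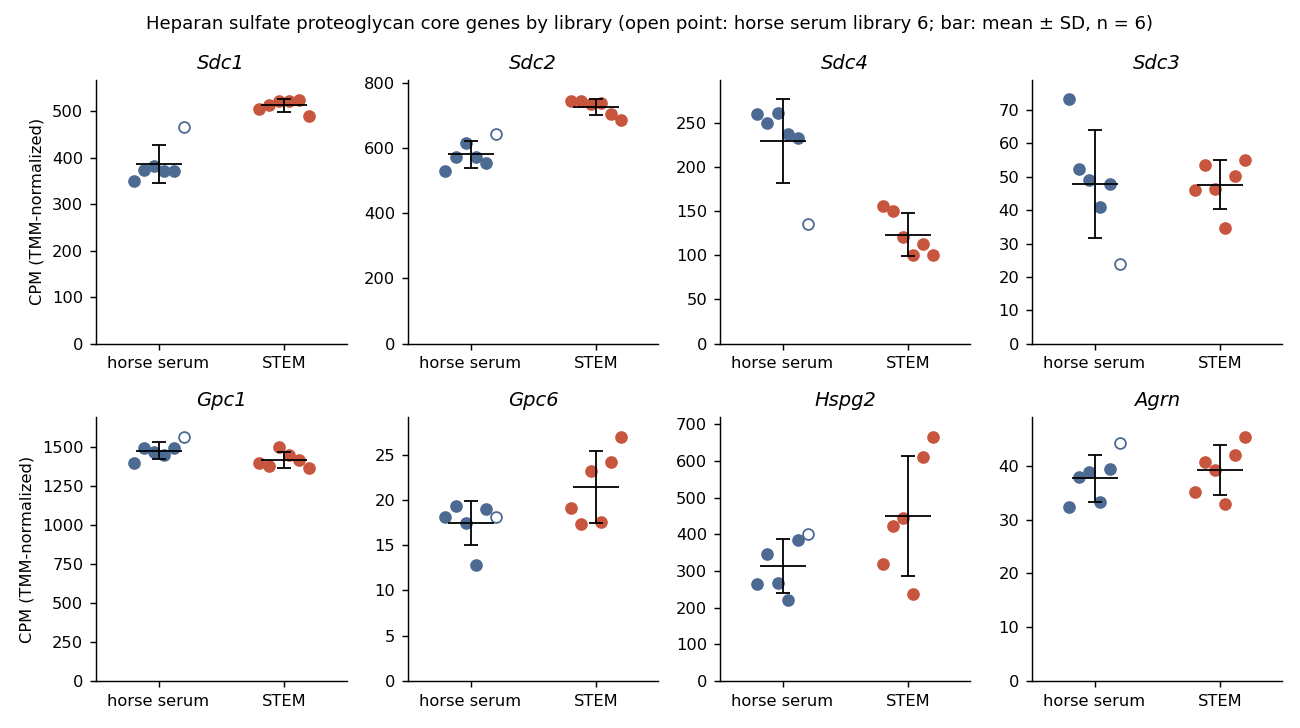
CPM after TMM normalization of the 8 tested core genes, 1 point per library, with the mean and SD of 6 libraries a group (horse serum blue, library 6 as an open point; STEM red). Sdc1 and Sdc2 do not overlap between the groups, Sdc4 is lower with STEM but for library 6 of the horse serum group, and Hspg2 spreads from 236.7 to 666.7 CPM with STEM.

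Sdc1 (ENSMUSG00000020592, chromosome 12, 8771323 to 8793715, plus strand) is a syndecan best known from epithelia and plasma cells that falls as myoblasts differentiate. Its level in horse serum had a low of 349.0, a median of 372.7 and a high of 465.4 CPM, and with STEM a low of 489.5, a median of 516.7 and a high of 524.2 CPM. All 6 STEM libraries lay above all 6 horse serum libraries, and the highest horse serum value was that of library 6. Means rose from 385.5 ± 40.7 CPM to 512.0 ± 13.3 CPM (SD, n = 6 each). This is a 1.33-fold difference (log2 fold change 0.41, SE 0.061, edgeR adjusted p = 0.000126). Without library 6 the log2 fold change was 0.47.

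Sdc2 (ENSMUSG00000022261, chromosome 15, 32920723 to 33034935, plus strand), the syndecan typical of mesenchymal cells, moved the same way by a smaller amount. In horse serum its lowest, median and highest values were 530.0, 573.2 and 644.3 CPM, and with STEM they were 687.1, 736.1 and 745.3 CPM. Again the groups did not overlap, and library 6 was the highest of the horse serum libraries. Among all tested genes, 17.2% had groups that did not overlap in either direction. Sdc2 averaged 581.6 ± 41.6 CPM, against 725.8 ± 24.0 CPM under STEM (SD, n = 6 each). The log2 fold change was 0.32 (SE 0.052, edgeR adjusted p = 0.000249), a 1.25-fold difference, and 0.35 without library 6.

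Sdc4 (ENSMUSG00000017009, chromosome 2, 164424247 to 164443887, minus strand), which joins integrins at focal adhesions and signals through protein kinase C, was the core gene that fell. Horse serum libraries ran from 135.4 through a median of 243.0 to 261.1 CPM, and STEM libraries from 100.4 through 116.7 to 155.8 CPM. The low horse serum value was library 6, and the other horse serum libraries lay between 232.4 and 261.1 CPM. Of the 6 STEM libraries, 4 were below every horse serum library, and libraries 7 and 8, at 155.8 and 150.0 CPM, were above library 6 only. The means of 229.1 ± 47.3 CPM and 123.3 ± 24.2 CPM (SD, n = 6 each) correspond to a 1.85-fold lower level with STEM. The log2 fold change was -0.89 (SE 0.16, edgeR adjusted p = 0.00117). Without library 6 it was -1.003 (SE 0.12, edgeR adjusted p = 7.36e-05), where 50.8% of all genes were called.

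Sdc3 (ENSMUSG00000025743, chromosome 4, 130792537 to 130826319, plus strand) was the scarce syndecan, with 465 to 1129 counts per library. It ranged from 23.8 CPM in library 6 to 73.3 CPM in library 1, with a median of 48.4 CPM, in horse serum. With STEM it ranged from 34.7 to 55.0 CPM around a median of 48.4 CPM. The horse serum libraries thus enclosed all the STEM libraries, and the extremes were libraries 6 and 1. The log2 fold change was -0.0027 with a 95% interval of -0.46 to 0.46 (edgeR adjusted p = 0.994), so differences of up to about that size could not be seen. Its sign depended on which library was in the fit (-0.14 without library 6 and 0.16 without library 1). The antisense genes Gm26716 and Gm12970 share 415 and 48 of the 5989 exonic bases of Sdc3.

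Per length of exon, the summed syndecan level was 364.1 ± 11.5 CPM per kb in horse serum and 396.6 ± 15.6 CPM per kb with STEM (SD, n = 6 each), with ranges that overlapped (353.8 to 385.5 and 371.9 to 413.4). What differed more was its makeup. Sdc4 made up 24.7 ± 5.0% of the sum in horse serum and 12.2 ± 1.9% with STEM. In library 6 its share was 14.7%, inside the STEM range of 10.1 to 14.8%, and in the other horse serum libraries it was 25.8 to 28.6%. Sdc2 went from 45.3 ± 2.8% to 51.9 ± 0.93% and Sdc1 from 27.8 ± 3.0% to 33.9 ± 1.3%, and in library 6 they held 50.5% and 33.8%. For Sdc1, Sdc2 and Sdc4 the shares in library 6 were thus within or next to the STEM ranges. Its Sdc3 share of 1.10% was below the STEM range of 1.48 to 2.47%. Library 6 was also the horse serum library with the lowest myotube markers, and a link between these was not tested. Sdc3 never exceeded 3.44% of the sum. No test was made on these shares, which are other forms of the same levels.

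**Figure D2:**
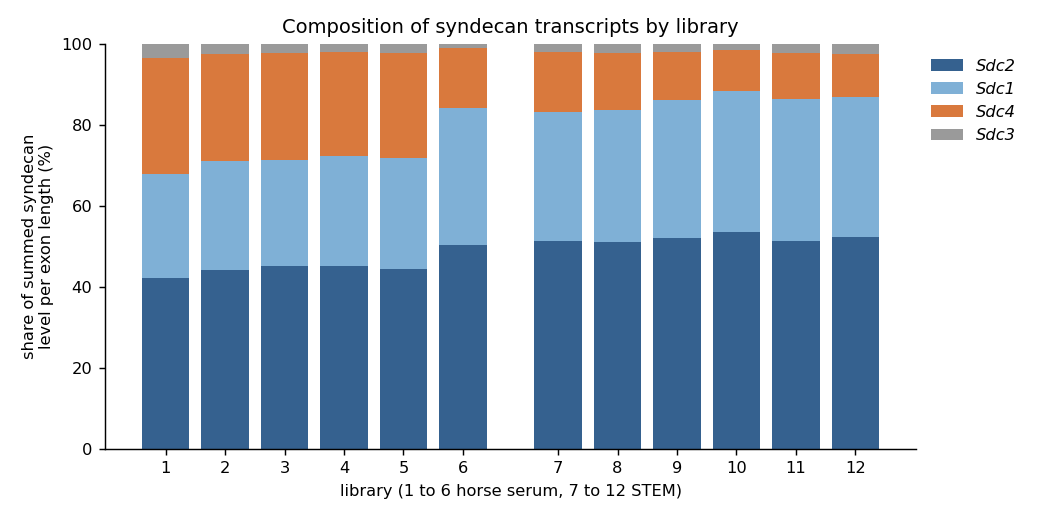
Share (%) of each syndecan in the summed syndecan level per exon length, 1 stacked bar per library (1 to 6 horse serum, 7 to 12 STEM). The Sdc4 part is 25.8 to 28.6% in libraries 1 to 5, 14.7% in library 6 and 10.1 to 14.8% in the STEM libraries.

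Among the glypicans Gpc1, Gpc3, Gpc4 and Gpc6, Gpc1 held 98.4 to 99.3% of the summed level per exon length. Gpc2 and Gpc5 were not part of this sum. Gpc1 (ENSMUSG00000034220, chromosome 1, 92831645 to 92860779, plus strand), which binds FGFs at the surface of myoblasts, ran from 1397 to 1564 CPM in horse serum and from 1365 to 1498 CPM with STEM. The ranges overlapped, although 3 of the 6 STEM libraries lay below every horse serum library. Its means were 1475 ± 55.4 CPM and 1415 ± 49.8 CPM (SD, n = 6 each), a log2 fold change of -0.06 with a 95% interval of -0.15 to 0.03 (edgeR adjusted p = 0.314). With offsets for GC content and transcript length, an alternative added after the data were seen, the log2 fold change was -0.16 and passed the threshold (edgeR adjusted p = 0.0136). Without library 6 it was -0.04. Of its 5159 exonic bases, 977 (18.9%) overlap Ankmy1 on the opposite strand, and whether the authors counted by strand is not given in the sources used here.

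Gpc6 (ENSMUSG00000058571, chromosome 14, 116925315 to 117976544, plus strand), known from signals of astrocytes to synapses and from bone growth, was low, with 199 to 469 counts per library. It spanned 12.8 to 19.4 CPM in horse serum and 17.3 to 27.0 CPM with STEM, and 3 of the 6 STEM libraries exceeded every horse serum library. The log2 fold change of 0.29 (95% interval 0.03 to 0.55) did not pass the threshold (edgeR adjusted p = 0.0789). It passed without STEM library 8 (log2 fold change 0.34, edgeR adjusted p = 0.0437) and without STEM library 10 (0.34, edgeR adjusted p = 0.0483). Without horse serum library 6 it was 0.30 and did not pass (edgeR adjusted p = 0.0845). Gpc3 (ENSMUSG00000055653, chromosome X, 52272426 to 52613950, minus strand) and Gpc4 (ENSMUSG00000031119, chromosome X, 52053021 to 52165252, minus strand), neighbours on the X chromosome, had 0 to 2 counts in each library. That is under the limit of 3 counts that a count of 0 allows, so neither was detectable at this depth and no fold was computed.

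Hspg2 (ENSMUSG00000028763, chromosome 4, 137468769 to 137570630, plus strand) encodes perlecan, a very large basement membrane protein, and was the most variable core gene with STEM. In horse serum it ran from 219.6 CPM in library 4 through a median of 306.0 to 400.7 CPM in library 6, and with STEM from 236.7 CPM in library 10 through 434.3 to 666.7 CPM in library 12. Of the STEM libraries, 4 were above every horse serum library, and library 10 was below all but 1 of them. The means were 313.3 ± 73.7 and 450.1 ± 164.9 CPM (SD, n = 6 each). The log2 fold change of 0.52 (95% interval -0.03 to 1.07) did not pass the threshold (edgeR adjusted p = 0.126). Without STEM library 10 it was 0.65 and passed (edgeR adjusted p = 0.0341), and without horse serum library 6 it was 0.61 and did not (edgeR adjusted p = 0.103).

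The Hspg2 transcript is long (14187 bases) and GC-rich (60.9%). Among tested genes outside the core genes, 81 had a transcript of at least 6000 bases and a GC content of at least 58%, a class set after the data were seen. Of these, 32 were called higher with STEM and 3 lower, with a median log2 fold change of 0.26, where 18.9% of all genes were called higher and 17.4% lower. Their median deviation from the gene means, on the log2 scale, was 0.43 in library 12 and 0.33 in library 11, where Hspg2 deviated by 0.89 and 0.76. It was -0.18 in library 10 and -0.16 in library 4, where Hspg2 deviated by -0.61 and -0.71. With offsets for GC content and length the Hspg2 log2 fold change was 0.20 (SE 0.14, edgeR adjusted p = 0.298). The part of transcript length and GC content in the level of Hspg2 was not tested further.

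**Figure D3:**
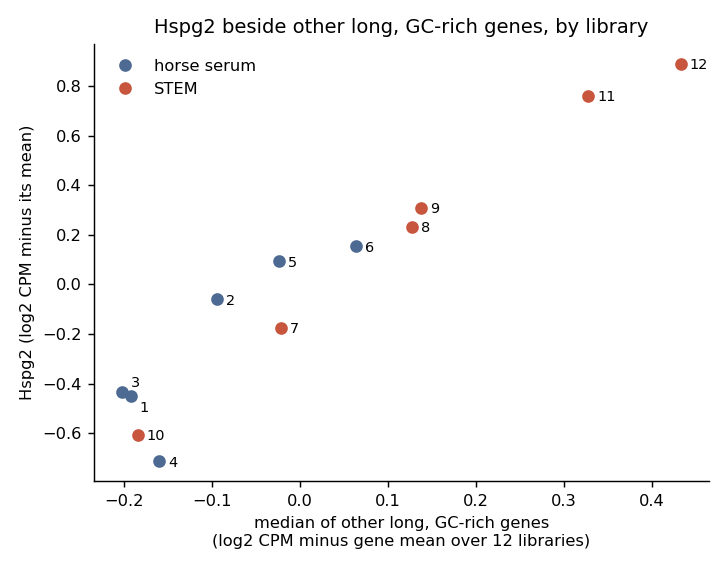
Deviation of Hspg2 from its mean over the 12 libraries (log2 CPM, vertical axis) against the median deviation of 81 other long, GC-rich genes (horizontal axis), with library numbers beside the points (horse serum blue, STEM red). Libraries 11 and 12 are highest on both axes, and STEM library 10 lies among horse serum libraries 1, 3 and 4.

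Agrn (ENSMUSG00000041936, chromosome 4, 156165290 to 156197488, minus strand), the nerve and muscle proteoglycan that acts through Lrp4 and Musk, was low and alike in range. It spanned 32.4 to 44.2 CPM in horse serum and 32.9 to 45.5 CPM with STEM. The ranges covered each other almost fully. The means were 37.7 ± 4.4 and 39.3 ± 4.6 CPM (SD, n = 6 each), with a log2 fold change of 0.06 and a 95% interval of -0.13 to 0.24 (edgeR adjusted p = 0.657). Without library 6 the log2 fold change was 0.11 (edgeR adjusted p = 0.285). The sign turned with offsets for GC content and length (-0.11, edgeR adjusted p = 0.134).

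Per kb of exon, the order of the core genes by mean level over the 12 libraries was Gpc1 (280.1 CPM per kb), Sdc2 (185.3), Sdc1 (117.8), Sdc4 (69.2), Hspg2 (26.7), Sdc3 (7.98), Agrn (4.15) and Gpc6 (3.02). Gpc1 ranked 152nd and Sdc2 244th among 14164 tested genes by this measure, whereas Agrn and Gpc6 ranked below the middle. By mean level the membrane-bound Gpc1, Sdc2, Sdc1 and Sdc4 were above the secreted Hspg2 and Agrn, whereas the membrane-bound Sdc3 and Gpc6 were below Hspg2. Neighbours in this order kept their order in all 12 libraries, except in 3 pairs. Sdc1 was above Sdc4 in 4 of 6 horse serum libraries and in 6 of 6 STEM libraries. Sdc4 was above Hspg2 in 6 and 5 libraries of the respective groups, the exception being STEM library 12. Sdc3 was above Agrn in 5 and 6 libraries. The last pair rests on the length used: per kb of the longest transcript Gpc6 averaged 4.69 and Agrn 4.47 CPM per kb, the opposite order.

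**Figure D4:**
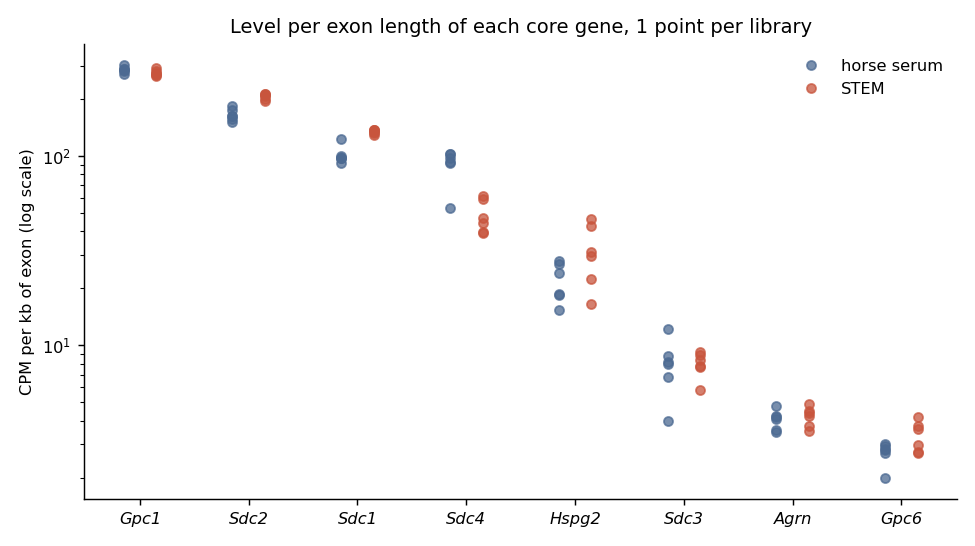
Level per exon length (CPM per kb, log axis) of the 8 tested core genes, ordered by their mean, 1 point per library (horse serum blue, STEM red). Gpc1 lies near 280.1 and Gpc6 near 3.02 CPM per kb, and Sdc1 and Sdc4 meet in horse serum but not with STEM.

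The genes whose log2 CPM ran most like that of Sdc1 over the 12 libraries were Adcy7 (Pearson r = 0.993), Krt14 (0.993) and Gclc (0.992). For Sdc4 they were Pcmtd1 (0.985), Dynlt3 (0.982) and Angptl2 (0.982). These are descriptions without a test, since the libraries share 2 groups and 1 library that stands apart. For Hspg2, looked up after its values were seen, they were Srrm2 (0.987), R3hdm2 (0.986) and Zfp469 (0.984).

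Other genes that encode cores for heparan sulfate were looked at next. Of 8 such genes 3 were tested, with a median log2 fold change of 0.01. Only 1 was called, 33.3% of the tested genes against 36.4% of all genes. This was Col18a1, a basement membrane collagen that carries heparan sulfate and yields endostatin, which rose from 202.1 ± 53.3 CPM to 492.9 ± 37.5 CPM (SD, n = 6 each; log2 fold change 1.29, SE 0.14, edgeR adjusted p = 1.56e-05). Its groups did not overlap (148.0 to 302.9 CPM, highest in library 6, and 456.6 to 546.0 CPM), and without library 6 the log2 fold change was 1.44. Tgfbr3 and Spock2 were not called, and Gpc5, Spock1 and Spock3 had 3 counts or fewer in every library. Gpc2 and Srgn were above that limit but had too few counts to be tested.

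Chains start with a linker sugar chain on the core and are then lengthened by exostosins. Of 14 linker and polymerisation genes 13 were tested, and 5 were called higher with STEM against 2 lower (median log2 fold change 0.07). Ext1, a subunit of the chain polymerase, rose from 160.6 ± 19.4 to 223.0 ± 12.7 CPM (SD, n = 6 each; log2 fold change 0.47, edgeR adjusted p = 0.000119), with no overlap between the groups. Its partner Ext2 was not called (76.2 and 79.8 CPM; edgeR adjusted p = 0.277). The exostosin-like genes Extl1 (log2 fold change 0.80) and Extl3 (0.32), the linker galactosyltransferase B3galt6 (0.65) and the linker enzyme B4galt7 (0.20) also rose. Ugdh, which makes UDP-glucuronic acid (log2 fold change -0.19), and the linker kinase Fam20b (-0.15) fell. The 7 calls were 53.8% of the tested genes, against 36.4% of all genes (18.9% higher and 17.4% lower). Ugdh, Fam20b and B4galt7 were not called with offsets for GC content and length, which left 4 calls, all higher. B4galt7 lost its call in 12 of 20 alternatives and Ugdh in 4. Xylt1 had 3 counts or fewer in every library. Genes named in addition to the 4 of lowest p and the minority direction of a list were chosen after their values were seen.

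Sulfation and epimerisation give chains their binding sites. Of 20 genes for these steps 14 were tested and 10 were called, 4 higher and 6 lower, with a median log2 fold change of -0.12. These were 71.4% of the tested genes, against 36.4% of all genes (18.9% higher and 17.4% lower). Among the lower were Papss1, which makes the sulfate donor (93.5 ± 5.1 to 76.0 ± 5.8 CPM; SD, n = 6 each; log2 fold change -0.30, edgeR adjusted p = 0.000722), and the N-deacetylase and N-sulfotransferase genes Ndst4 (log2 fold change -1.08) and Ndst3 (-0.60). Ndst4 and Ndst3 were scarce, with 0.96 and 2.11 CPM on average with STEM. Hs3st3a1, for 3-O-sulfation, was also lower (4.39 to 2.40 CPM; log2 fold change -0.85). Ndst1, the widely expressed gene of that family, was higher (60.9 to 77.8 CPM; log2 fold change 0.35), as were Papss2, Slc35b3 and the epimerase Glce. Slc35b3 was near the threshold (edgeR adjusted p = 0.0471) and lost its call in 15 of 20 alternatives. Members of a single enzyme family thus moved in both directions. The remaining lower genes were Hs2st1 and the sulfate donor transporter Slc35b2. Hs6st2, Hs6st3, Hs3st2, Hs3st4, Hs3st5 and Hs3st6 had 3 counts or fewer in every library.

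After synthesis, the extracellular sulfatases Sulf1 and Sulf2 remove sulfate from chains, heparanase (Hpse) cuts them and lysosomal enzymes break them down. Of 11 such genes 10 were tested, and 1 was called higher against 4 lower (median log2 fold change -0.03). These were 50% of the tested genes, against 36.4% of all genes. Without library 6, 3 were called higher, with Gusb (0.36) and Sgsh (0.47) added, and 4 lower, where 50.8% of all genes were called. The sulfatases moved in opposite directions. Sulf1 fell from 154.1 ± 9.98 to 129.5 ± 5.1 CPM (SD, n = 6 each; log2 fold change -0.25, edgeR adjusted p = 0.000991), with no overlap between the groups. Sulf2 rose from 28.6 ± 9.2 to 45.3 ± 4.9 CPM (log2 fold change 0.66, edgeR adjusted p = 0.00668), and library 6, at 47.3 CPM, was inside the STEM range of 38.9 to 50.6 CPM. Without library 6 the Sulf2 log2 fold change was 0.86. Naglu (log2 fold change -0.21), Hgsnat (-0.17) and Hpse (-0.35) were lower. Hpse lost its call in 10 of 20 alternatives. Hpse2 had 3 counts or fewer in every library.

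Core proteins are also shed or trimmed by proteases. Of 10 genes for cleavage and release 7 were tested, and 1 was called higher against 2 lower (median log2 fold change -0.17), 42.9% of the tested genes against 36.4% of all genes. Bmp1, a protease that acts on matrix precursors and on perlecan, rose from 159.1 ± 14.4 to 257.4 ± 5.3 CPM (SD, n = 6 each; log2 fold change 0.69, edgeR adjusted p = 4.20e-07). Mmp16 fell from 8.21 to 4.58 CPM (log2 fold change -0.85, edgeR adjusted p = 7.98e-05) and Mmp2 from 339.4 to 300.2 CPM (-0.18, edgeR adjusted p = 0.00614). All 3 had groups that did not overlap, as did 17.2% of all tested genes. Mmp14, a membrane protease that can shed Sdc1, was not called (222.2 ± 71.0 and 268.8 ± 10.9 CPM; edgeR adjusted p = 0.184), and its highest horse serum value, 364.4 CPM, was library 6. Without that library its log2 fold change was 0.47 and was called (edgeR adjusted p = 1.61e-07). The list then had 4 calls among 7 tested genes, 2 higher and 2 lower, where 50.8% of all genes were called. Adam10 and Adam17, which shed several syndecans, were not called. Mmp7 had 3 counts or fewer in every library.

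All 12 genes for partners of the core proteins were tested, of which 4 were called higher against 2 lower (median log2 fold change 0.05), 50% against 36.4% of all genes. Sdcbp, the syntenin gene whose product binds the tail ends shown above, fell from 189.4 ± 4.4 to 159.1 ± 4.9 CPM (SD, n = 6 each; log2 fold change -0.25, edgeR adjusted p = 0.00011), with no overlap between the groups. Tiam1, a Rac activator that binds syndecan tails, rose from 21.4 ± 6.7 to 39.7 ± 5.6 CPM (log2 fold change 0.88, edgeR adjusted p = 0.00132). Among the partners of agrin, dystroglycan (Dag1, log2 fold change 0.34), the receptor Lrp4 (0.27) and the adaptor Dok7 (0.26) rose. With offsets for GC content and length Lrp4 was still called (log2 fold change 0.13, edgeR adjusted p = 0.0255) and Dok7 was not (0.18, edgeR adjusted p = 0.13). Dok7 lost its call in 9 of 20 alternatives. Musk (log2 fold change -0.0020, edgeR adjusted p = 0.978) and Rapsn (0.0085, edgeR adjusted p = 0.896) were not called. Nid2, a nidogen that links perlecan to laminin networks, fell (log2 fold change -0.24, edgeR adjusted p = 0.0152).

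Of 14 heparin-binding ligands 11 were tested, and 3 were called higher against 2 lower (median log2 fold change 0.12), 45.5% of the tested genes against 36.4% of all genes. Hgf, the ligand of Met that activates satellite cells, fell from 41.8 ± 3.7 to 19.8 ± 2.4 CPM (SD, n = 6 each; log2 fold change -1.08, edgeR adjusted p = 2.33e-07). Hbegf, an EGF receptor ligand that needs heparan sulfate for full activity, rose from 38.2 ± 5.3 to 67.8 ± 9.3 CPM (log2 fold change 0.83, edgeR adjusted p = 4.08e-05). The groups did not overlap for either gene. The chemokine Cxcl12 fell (log2 fold change -0.51, edgeR adjusted p = 0.00131), and Nrg1 (0.43, edgeR adjusted p = 0.0191) and Pdgfb (0.19, edgeR adjusted p = 0.0399) rose. Pdgfb lost its call in 11 of 20 alternatives, among them the offsets for GC content and length (0.11, edgeR adjusted p = 0.245). Without library 6, where 50.8% of all genes were called, there were 8 calls, with Fgf2 (0.36) and Pdgfa (0.37) added among the higher and Vegfa (-0.32) among the lower.

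**Figure D5:**
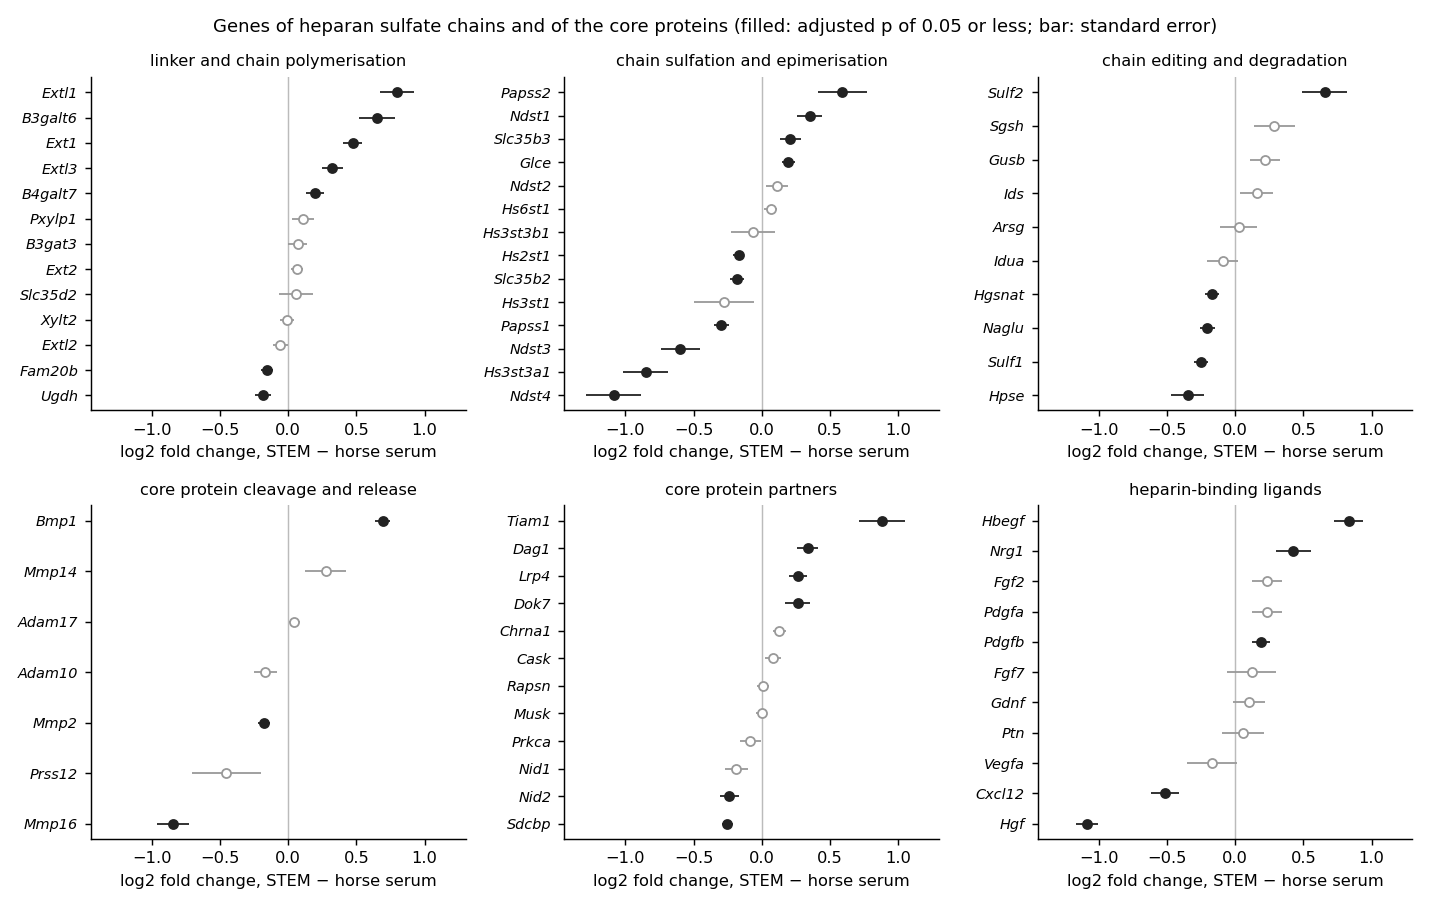
Log2 fold change (STEM minus horse serum, horizontal axis, bar: standard error) of the tested genes of 6 lists, filled where the edgeR adjusted p was 0.05 or less. Each list holds called genes on both sides of 0, from Ndst4 and Hgf at -1.08 to Tiam1 at 0.88.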

How the data were processed

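Stranded total RNA depleted of ribosomal RNA was sequenced from 12 libraries of C2C12 myotubes, 6 with STEM and 6 with horse serum. The authors deposited raw read counts per Ensembl gene (GRCm38), and the submitters' processing notes name STAR 2.7.3a, featureCounts 1.6.3 and DESeq2 1.26.0. The annotation release and the strand setting are not given in the sources used here. Of 55487 genes listed, 55227 were in GENCODE M21, and 0.00268% of counts lay outside it.

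The counts were tested with edgeR 4.0.16 (R 4.3.3; TMM normalization, filterByExpr, robust glmQLFit and glmQLFTest), which kept 14175 genes. CPM used TMM library sizes, and levels per kb used the union of exons. The same code was tested on simulated data. Alternatives were DESeq2 size factors, upper quartile normalization, no filter, at least 10 counts in every library, DESeq2 1.42.0, limma-voom (limma 3.58.1), thinning to the lowest total, leaving out each library, the longest transcript in place of the exon union and, added after the data were seen, offsets for GC content and length.

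The members and lists were chosen with earlier results of these data known. All 10 core genes were named, and from each list the 4 called genes of lowest p and up to 3 called against the majority direction. 1 gene of the editing and degradation list is not reported here, and its counts leave it out. No protein sequence was used here. Counting error is only part of the spread between libraries.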

Additional observations from a re-analysis of the deposited data

Results flagged for a closer look

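Of 84 sets of 6 libraries examined, 14 held a library whose distance to its nearest neighbour was a large part of the whole range (Dixon's ratio above 0.625), where chance gives about 1 in 20. These sets share the same 12 libraries and are not independent, so the excess over that rate was not tested. Horse serum library 6 was the one that stood out in 9 of the 14. Among the core genes these were Sdc1, at 465 CPM against 349 to 383 in the other horse serum libraries, and Sdc4, at 135 CPM against 232 to 261. Of the pathway genes, library 6 stood out for Sulf2 (47.3 CPM), Mmp2 (376 CPM), Tiam1 (33.9 CPM), Hbegf (27.9 CPM) and Nrg1 (28.3 CPM), and of the marker sums for the myotube list (7790 CPM against 14400 to 15600) and the reserve cell list (750 CPM against 559 to 617). Gpc6 stood out in horse serum library 4 (12.8 CPM against 17.4 to 19.4), and Nid2 in horse serum library 1 (219 CPM against 268 to 287). With STEM, library 10 was high for Ndst4 (1.29 CPM), library 12 for Hgf (24.4 CPM, still below every horse serum library) and library 8 for the summed endothelial markers (1.0 CPM against 0.408 to 0.606). No explanation of these values was tested.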

How the results depend on the processing

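No paired analysis was possible because the library numbers 1 to 6 and 7 to 12 do not repeat between the groups. Sdc1, Sdc2 and Sdc4 kept their direction and stayed past the threshold under every alternative run. With 1 library left out, the number of core genes called ran from 3 to 5 (5 without STEM library 10), of all genes from 4459 to 7245, and of heparin-binding ligands from 4 to 8 (8 without horse serum library 6). The log2 fold change of Sdc3 then ran from -0.14 to 0.16, and with limma-voom it was 0.076. With offsets for GC content and length, that of Agrn was -0.11, and 4 linker and polymerisation genes were called. With the longest transcript in place of the exon union, levels were 346.0 CPM per kb for Gpc1, 142.1 for Sdc1 and 4.69 for Gpc6. This puts Gpc6 above Agrn, at 4.47. All other counts of calls summed over both directions stayed within 1.5 times the reported ones. Of the called genes of the lists, B4galt7, Slc35b3, Hpse, Dok7 and Pdgfb lost their call in 9 to 15 of 20 alternatives, Ugdh in 4 and Fam20b in 1, and the rest in none. The cause of these shifts was not tested. At this depth Gpc3 and Gpc4 could not be measured, and the fold changes of Sdc3 and Hspg2 were limited by the spread between libraries.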
